A study of Mus musculus with 2 samples.

Results

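Cytochrome P450 genes outside the Cyp3a subfamily were followed in single hepatocytes of the mouse after culture in 2 media; hepatocytes are the liver cells that carry out most of its metabolism. Members were taken by symbol, as all genes named Cyp with a family number and a subfamily letter, without those whose symbol starts with Cyp3a. The rule found 92 of the 28692 listed genes. Of these, 34 had at least 20 UMIs (counted transcript molecules) over both libraries and are described, 25 had 1 to 19 UMIs and 33 had 0 UMIs in both libraries. The 33 included Cyp4x1os, an antisense RNA, and Cyp2d37-ps, a pseudogene. Cyp51, the sterol demethylase, has no subfamily letter and was not a member. At the limit, Cyp2f2 had 20 UMIs, and Cyp17a1 and Cyp26b1 had 21, while Cyp2d12, Cyp2d11 and Cyp4f15 stayed below with 16, 15 and 14. A gene counted in 1 library alone could enter only by being higher there, so the counts of members below are descriptions and are read beside the same counts over all genes.

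The hepatocytes came from liver of the mouse strain C57BL/6 and were grown in 3 dimensions in Matrigel, a gel of basement membrane proteins. Cells of the expansion library grew with CHIR99021 at 3 uM, which blocks the kinase GSK3, and 100 ng/mL of the cytokine TNFa, without dexamethasone. Cells of the induction library grew with 3 uM dexamethasone, a synthetic glucocorticoid, without CHIR99021 and TNFa. Both media held the growth factors EGF (25 ng/mL) and HGF (50 ng/mL), 10 uM of the ROCK inhibitor Y27632 and 1 uM of the TGF-beta receptor inhibitor A83-01, with nicotinamide, N-acetylcysteine, B27 and N2. With 1 library per medium there is no replicate to set a difference against and no test was made, and the 3 agents that differed cannot be told apart. The number of animals behind the cells is not given in the labels.

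Cytochrome P450 enzymes are heme proteins of the endoplasmic reticulum and of mitochondria that insert 1 oxygen atom into their substrates. Families CYP1, CYP2 and CYP3 mainly oxidise drugs and toxicants, CYP4 oxidises fatty acids, and further families make bile acids and steroid hormones or break down vitamins. Hepatocytes carry most of the P450 of the body, lose much of it in culture, and set single genes by nuclear receptors, by the aryl hydrocarbon receptor, by growth hormone and by position in the lobule.

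Cells were kept with 500 genes or more and at most 25% of UMIs from mitochondrial genes. By this filter 1191 expansion and 1245 induction cells remained, with 29390000 and 9201887 UMIs. The median cell held 23184 UMIs in expansion and 6765 in induction medium. Levels are in CPM, a gene's UMIs scaled to a common library total. A count of 3 UMIs, used as the floor for a gene at 0, equals 0.102 CPM for expansion and 0.326 CPM for induction cells. Of the 10 hepatocyte markers all were counted in both libraries, together at 36149 and 61538 CPM. Markers of stellate cells and fibroblasts summed to 0.204 and 0.326 CPM, with Col1a1, Col1a2 and Col3a1 at 0 UMIs, those of endothelium to 0.680 and 0.652 CPM, of macrophages to 1.77 and 0.869 CPM and of lymphocytes to 0.102 and 0 CPM. Bile duct markers summed to 119 and 84.4 CPM. Most came from Sox9 (103 and 74.8 CPM), with Cftr at 11.4 and 6.96 CPM and Epcam at 4.42 and 2.61 CPM. Krt19 had 6 and 1 UMIs, and Krt7 was at 0. The libraries had 4 barcode sequences in common.

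The sequences upstream of 4 members are shown, each for a reason of its own. Cyp1b1 was the most abundant member in expansion medium, and Cyp26a1 holds the letters of a retinoic acid direct repeat. The neighbours Cyp2d9 and Cyp2d10 were both over 10-fold higher in induction medium. Each line gives the 250 bases before the annotated start in RefSeq on build GRCm38.p6, 5′ to 3′ on the gene's strand. They lie at chr17:79715062-79715311 (minus strand, Cyp1b1), chr19:37697558-37697807 (plus, Cyp26a1), chr15:82452127-82452376 (plus, Cyp2d9) and chr15:82407195-82407444 (minus, Cyp2d10). Gene positions given below come from another annotation, GENCODE, whose starts can differ. The Cyp2d9 window lies inside the gene as GENCODE places it (82433437 to 82456845). The Cyp26a1 and Cyp2d10 windows reach into their GENCODE genes, which start at 37697798 and 82407195. Capitals mark the aryl hydrocarbon receptor core GCGTG, read on the other strand, in Cyp1b1, the retinoic acid receptor direct repeat in Cyp26a1, and the longest run shared by Cyp2d9 and Cyp2d10.
Cyp1b1: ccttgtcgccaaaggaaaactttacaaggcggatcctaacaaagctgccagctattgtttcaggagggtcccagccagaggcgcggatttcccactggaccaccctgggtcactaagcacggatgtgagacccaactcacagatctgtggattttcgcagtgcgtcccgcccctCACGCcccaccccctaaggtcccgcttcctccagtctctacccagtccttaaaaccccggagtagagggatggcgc
Cyp26a1: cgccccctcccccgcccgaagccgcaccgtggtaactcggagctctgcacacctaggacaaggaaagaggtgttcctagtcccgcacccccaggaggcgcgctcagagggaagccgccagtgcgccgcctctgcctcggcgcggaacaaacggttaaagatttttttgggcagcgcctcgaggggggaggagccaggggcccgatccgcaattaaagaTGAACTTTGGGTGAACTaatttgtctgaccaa
Cyp2d9: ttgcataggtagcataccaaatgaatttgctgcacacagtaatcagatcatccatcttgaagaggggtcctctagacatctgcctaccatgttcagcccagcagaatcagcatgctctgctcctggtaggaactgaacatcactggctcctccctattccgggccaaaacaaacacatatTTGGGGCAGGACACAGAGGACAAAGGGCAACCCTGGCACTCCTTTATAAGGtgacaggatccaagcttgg
Cyp2d10: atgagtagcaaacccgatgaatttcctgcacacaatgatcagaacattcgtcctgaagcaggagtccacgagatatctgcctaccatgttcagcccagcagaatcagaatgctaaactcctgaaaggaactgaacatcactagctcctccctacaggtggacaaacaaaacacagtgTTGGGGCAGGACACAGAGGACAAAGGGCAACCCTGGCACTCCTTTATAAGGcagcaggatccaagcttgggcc

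The core GCGTG was found once upstream of Cyp1b1, from base -76 to base -72 before the start. All motifs were searched on both strands. This short one is held by 28.2% of 32851 mouse promoters of the same length and by 6 of the 27 described members that could be matched: Cyp1b1, Cyp20a1, Cyp2c68, Cyp4f14, Cyp4f16 and Cyp4v3. Of these 6, Cyp4f14 and Cyp4v3 were called higher in induction medium and Cyp1b1 lower, while Cyp20a1, Cyp2c68 and Cyp4f16 were neither. Among all genes with at least 20 UMIs, 9.12% were called higher and 5.38% lower. Whether the letters bear on the level of any of these genes was not tested. Upstream of Cyp26a1 a 17-base repeat, AGTTCA, then 5 bases of any kind, then AGTTCA, ran from base -32 to base -16, read on the other strand. These exact letters were found in 7 of the 32851 promoters, and in no other described member that could be matched (27 of 34). Because the letters searched are those of the Cyp26a1 repeat and variants were not searched, the count does not show that such elements are rare. The palindrome of the glucocorticoid receptor, AGAACA, then 3 bases of any kind, then TGTTCT, was in 3 of all promoters and in 0 of the 27 members. The TATA letters TATAAA were in 12.4% of all promoters and in 14 of the 27 members, among them Cyp2d9, Cyp2d10, Cyp2d26 and Cyp2c29. The windows of Cyp2d9 and Cyp2d10 were identical at 82.8% of aligned positions with a shared run of 51 bases. Cyp2d26 was identical to Cyp2d9 at 53.6% and to Cyp2d10 at 54.4%. Cyp2d40, also called higher in induction medium (3 and 24 UMIs), was identical to them at 49.4% and 50.8%. Whether likeness of these windows goes with the ratio between the media was not tested. A match of letters is a description of the sequence and not a measured binding site.

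The family as a whole stood higher in induction medium, and its makeup differed more than its sum. All 92 members together held 23523 UMIs (800.4 CPM, 95% Poisson interval 790 to 811) in expansion medium and 12472 UMIs (1355 CPM, 1332 to 1379) in induction medium, a log2 ratio of induction over expansion of 0.76. The intervals here and below cover counting error only. Cyp1b1 alone took 47.9% of the family's UMIs in expansion medium and 7.22% in induction medium. Without it, the family stood at 417 and 1257 CPM (log2 ratio 1.59, 1.56 to 1.63). In induction medium the leading places went to Cyp2c29 (17.6% of the family's UMIs), Cyp4v3 (12.1%), Cyp2d10 (11.7%), Cyp2d9 (11.4%) and Cyp2d26 (9.92%). A UMI counts a molecule and is not divided by gene length.

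A member was called higher or lower when the libraries differed at least 2-fold and the exact interval of the ratio excluded 1. By this rule 22 of the 34 described members were higher in induction medium and 2 were lower (Cyp1b1 and Cyp2c40). Over all 11956 genes with at least 20 UMIs, 9.12% were called higher and 5.38% lower. The median log2 ratio was 1.75 over the described members, with counts under 3 set to 3, and 0.17 over all these genes. With at least 20 UMIs required in each library, which a gene at 0 in 1 library cannot meet, 14 of 22 members were higher and 1 was lower, against 8.75% and 2.85% of 10162 genes. Over genes with 50 UMIs or more in each library, the median log2 ratio was 0.22. Relative to it the calls were 21 and 2 among members, with Cyp4v3 (2.03-fold) falling below 2-fold, and 793 and 926 among all 11956 genes in place of 1090 and 643.

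**Figure D1:**
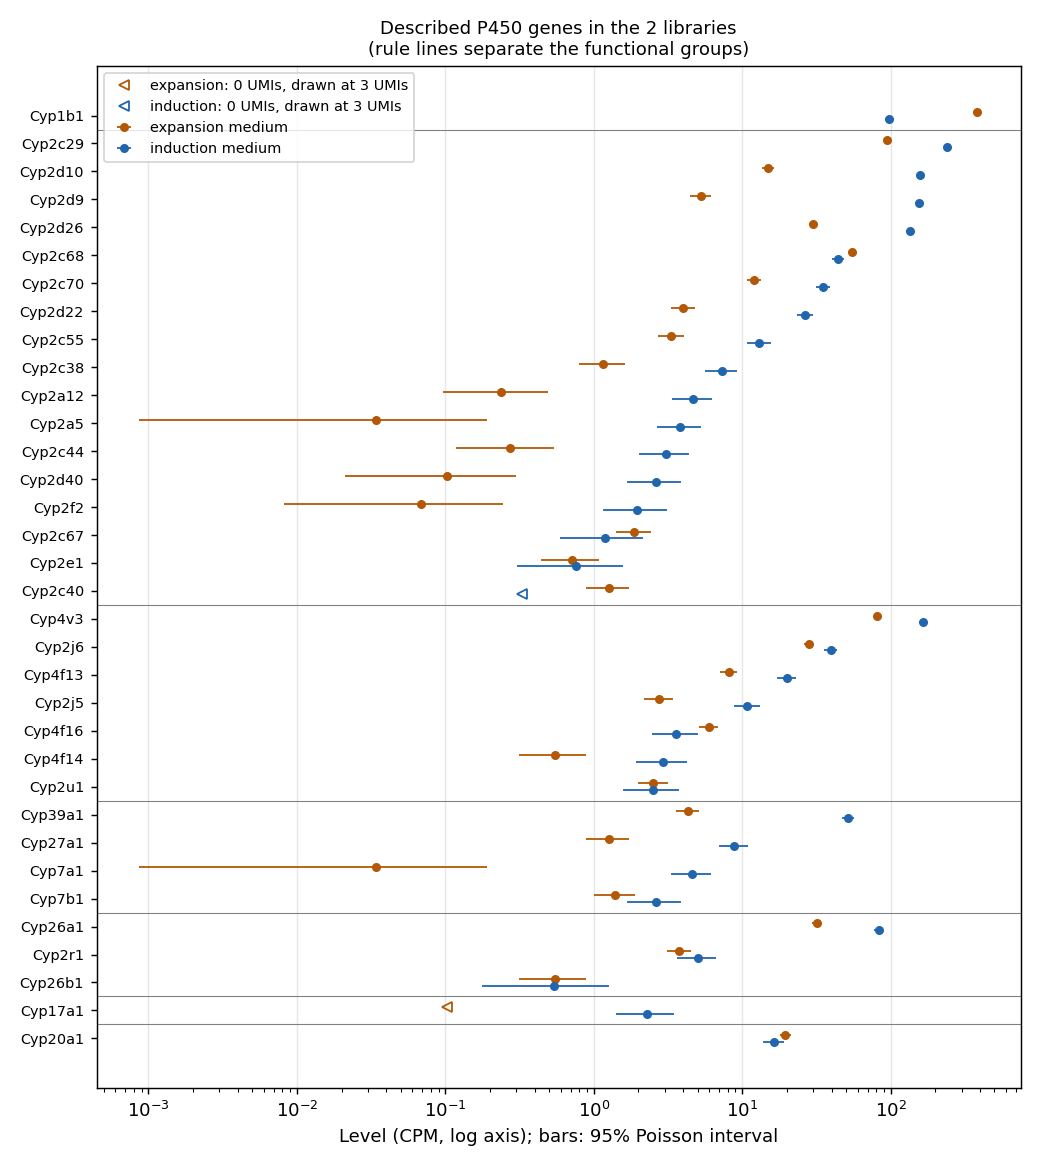
Level of each of the 34 described P450 genes in CPM on a log axis, in expansion (brown) and induction (blue) medium, with 95% Poisson intervals as bars; open triangles mark 0 UMIs and stand at the value of 3 UMIs. Genes are grouped by function from the top (CYP1, CYP2, fatty acid, bile acid and sterol, vitamin, steroid hormone, other). Most blue points lie to the right of the brown ones, and Cyp1b1 in the first row lies the other way.

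Cyp1b1 was the only described member of family CYP1, whose enzymes activate polycyclic aromatic toxicants and are textbook targets of the aryl hydrocarbon receptor. Cyp1b1 itself is best known from tissues other than the hepatocyte. It had 11265 UMIs (383 CPM) in expansion and 901 UMIs (97.9 CPM) in induction medium. That is a level 3.91-fold lower, with a log2 ratio of -1.97 (-2.07 to -1.87). It lies on chromosome 17 from 79701537 to 79715061 on GRCm38. The 6 markers of stellate cells and fibroblasts together held 6 UMIs in expansion and 3 in induction medium. Whether cells other than hepatocytes gave Cyp1b1 UMIs was not tested. The other 2 genes of the family went against it in level: Cyp1a2, a liver enzyme of caffeine breakdown, had 0 and 11 UMIs, and Cyp1a1 had 0 and 3 UMIs. With the 0 set to the floor Cyp1a2 was 11.7-fold higher in induction medium, and the interval of its log2 ratio starts at 3.00. Of the other fixed targets of the aryl hydrocarbon receptor, 6 in all, Tiparp (8.85 and 17.7 CPM) was called higher, at the 2-fold limit and within it relative to the median gene, and Nqo1 stood at 0.817 and 1.52 CPM. Under 20 UMIs, Ugt1a6a had 4 and 12 (log2 ratio 3.26, 1.54 to 5.35) and Aldh3a1 had 2 and 3, while Ahrr and Ugt1a6b had 0. The receptor gene Ahr stood at 32.8 and 26.7 CPM and its partner Arnt at 28.3 and 32.8 CPM.

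Among the drug and toxicant enzymes of family CYP2, 40 genes in all, 17 were described, of which 13 were higher in induction medium, 1 was lower and 3 were neither. The other 23 had 1 to 19 UMIs (12 genes) or 0 (11 genes). Among all 11956 genes with at least 20 UMIs, 9.12% were called higher and 5.38% lower. The CYP2 group summed to 225 CPM in expansion and 835 CPM in induction medium. The subfamilies differed in how far they moved, and most of the gap came from Cyp2d and from Cyp2c29.

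The Cyp2d genes, neighbours on chromosome 15 and relatives of the human drug enzyme CYP2D6, stood at 55.0 CPM together in expansion and 479 CPM in induction medium (log2 ratio 3.12, 3.04 to 3.21). All 5 described members were called higher, against 9.12% of all genes with at least 20 UMIs. Cyp2d9, a steroid hydroxylase known for higher levels in male mouse liver, had 155 UMIs (5.27 CPM) and 1420 UMIs (154 CPM), 29.3-fold higher (log2 ratio 4.87, 4.63 to 5.12). Cyp2d10, which lies next to Cyp2d9 among the described genes, had 441 UMIs (15 CPM) and 1460 UMIs (159 CPM), 10.6-fold higher. Cyp2d26 had 880 UMIs (29.9 CPM) and 1237 UMIs (134 CPM), 4.49-fold higher, so the gene that led the subfamily in expansion medium gained least. Cyp2d22 stood at 3.98 and 26.6 CPM, and Cyp2d40 had 3 and 24 UMIs (log2 ratio 4.68, 2.96 to 7.05). The last 500 bases of their longest annotated transcripts were cut into 31-base words. Of these words 36.0% for Cyp2d10, 37.0% for Cyp2d9, 35.1% for Cyp2d26 and 26.8% for Cyp2d40 recurred in another member, against 0% for Cyp2d22. The labels do not say which transcript end was read, and the split of UMIs among these genes, other than Cyp2d22, is uncertain. Cyp2d9 lies from 82433437 to 82456845, Cyp2d10 from 82402846 to 82407195 and Cyp2d26 from 82790101 to 82794294.

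The Cyp2c genes of chromosome 19, arachidonic acid epoxygenases and drug hydroxylases, did not share 1 direction. Together they stood at 169 and 344 CPM. Of 8 described genes, 5 were higher, 1 was lower and 2 were neither. Among all genes with at least 20 UMIs, 9.12% were called higher and 5.38% lower. Cyp2c29, the most abundant member in induction medium and in mice a gene of the pericentral hepatocytes that surround the central vein, had 2755 UMIs (93.7 CPM) and 2190 UMIs (238 CPM), 2.54-fold higher (log2 ratio 1.34, 1.26 to 1.43). It spans bases 39269405 to 39330713. Cyp2c70, which hydroxylates bile acids to the muricholic acids of mice, stood at 12 and 34.9 CPM, Cyp2c55 at 3.33 and 13.0 CPM, Cyp2c38 at 1.16 and 7.28 CPM and Cyp2c44 at 0.272 and 3.04 CPM. All 4 were called higher.

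Cyp2c68 lay on the other side, at 1602 UMIs (54.5 CPM) and 406 UMIs (44.1 CPM), within 2-fold. Its neighbour Cyp2c40 was counted 37 times in expansion medium and never in induction medium. With the 0 set to the floor this is 3.86-fold lower, and the interval of the log2 ratio ends at -1.58. Cyp2c67 had 55 and 11 UMIs (log2 ratio -0.65, -1.73 to 0.30). These 3 genes are close copies: 67.9%, 84.0% and 65.7% of the end words of Cyp2c68, Cyp2c40 and Cyp2c67 recurred in other members. Their single counts are uncertain, and the call of Cyp2c40 rests on 37 UMIs. Of the other Cyp2c genes, 6 had 1 to 19 UMIs and Cyp2c66 had 0.

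On chromosome 7 the 13 genes of the Cyp2a, Cyp2b, Cyp2f, Cyp2g, Cyp2s and Cyp2t subfamilies were close to silent in both media. Of these 13 genes, 7 had 0 UMIs, and together they held 12 UMIs (0.408 CPM) and 108 UMIs (11.7 CPM). Cyp2r1, elsewhere on chromosome 7 and given with the vitamin genes below, stood at 3.78 and 5.0 CPM. Cyp2a12 had 7 and 43 UMIs, 19.6-fold higher. Cyp2a5, the coumarin hydroxylase, had 1 and 35 UMIs (log2 ratio 6.80, 4.23 to 12.15), and Cyp2f2, which marks periportal hepatocytes and activates naphthalene, had 2 and 18 UMIs (log2 ratio 4.85, 2.78 to 8.0). Of the end words, 26.2% for Cyp2a12 and 20.9% for Cyp2a5 recurred in another member, so the counts of these 2 genes are uncertain. Cyp2b10, the standard target of the receptor CAR, had 0 and 5 UMIs. Cyp2e1, the ethanol oxidising enzyme that is among the most abundant P450 transcripts of pericentral hepatocytes in the liver, had 21 and 7 UMIs (0.715 and 0.761 CPM, log2 ratio 0.09, -1.39 to 1.38), so its level did not separate the media at this depth.

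**Figure D2:**
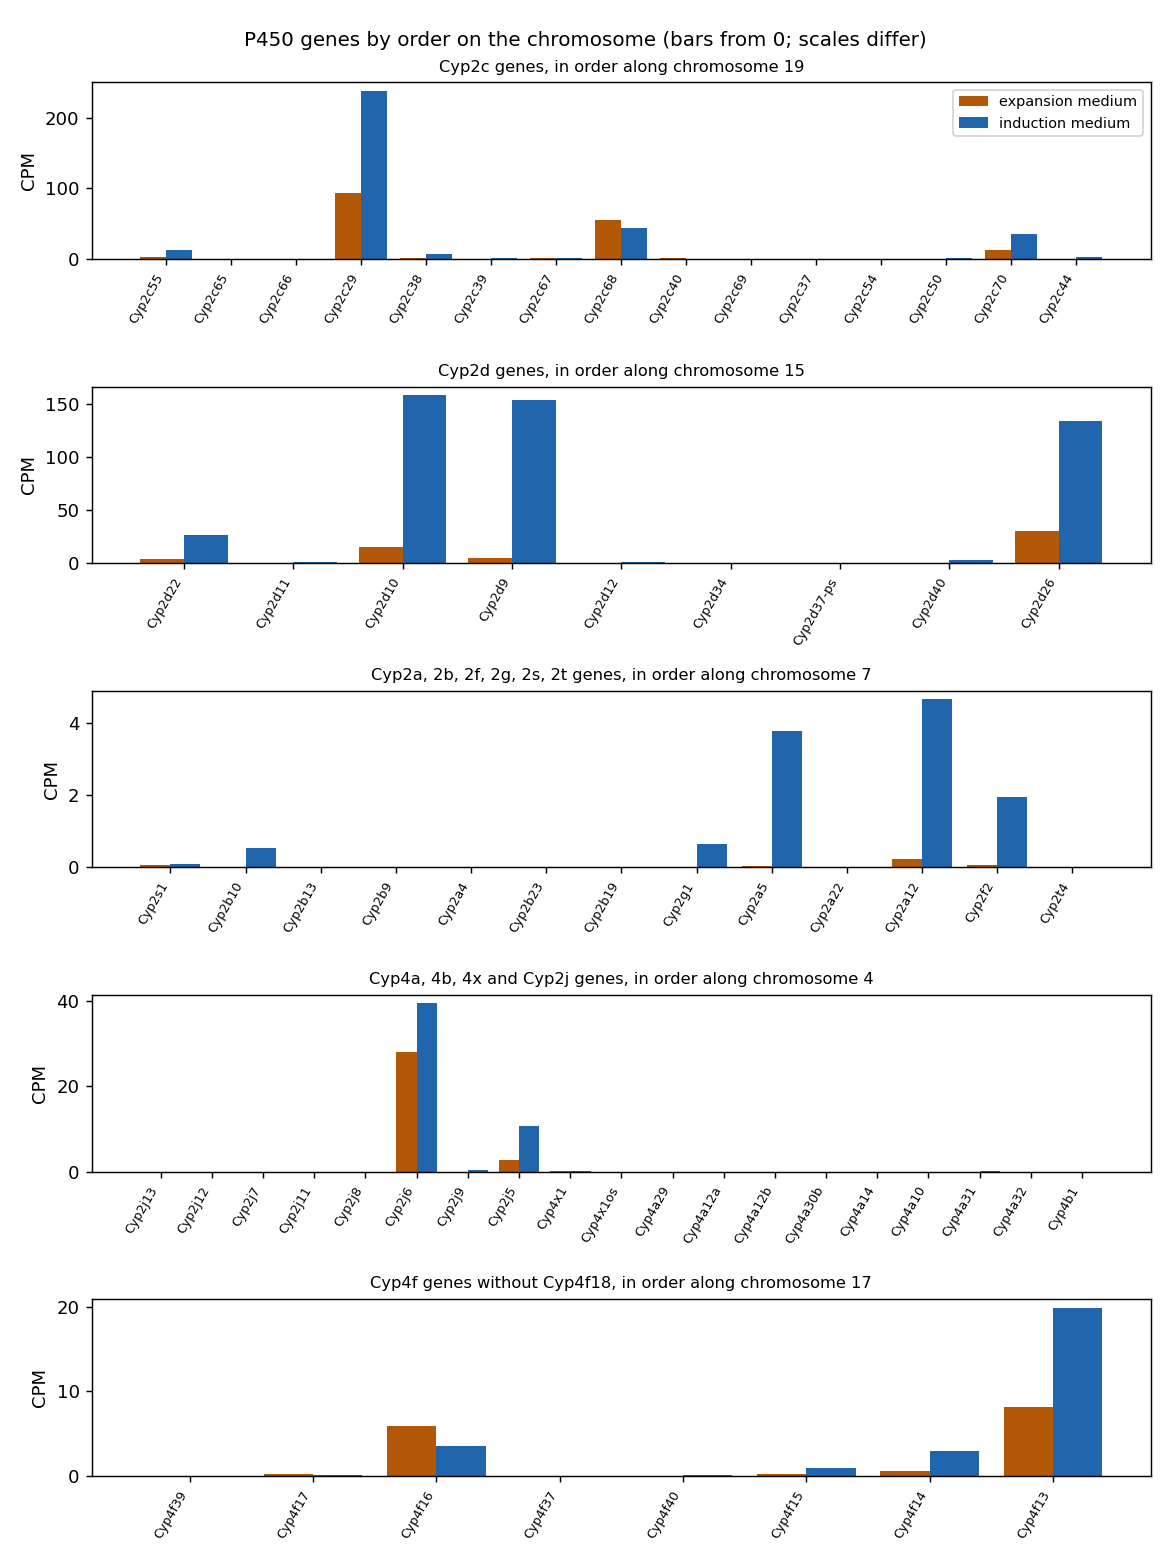
Level in CPM (bars from 0, with a scale of its own in each panel) of the P450 genes of 5 gene groups in the order in which they lie on their chromosome, in expansion (brown) and induction (blue) medium. A few genes stand out in each group: Cyp2c29, Cyp2c68 and Cyp2c70 on chromosome 19, Cyp2d10, Cyp2d9 and Cyp2d26 on chromosome 15, and Cyp2j6 on chromosome 4, where the neighbouring Cyp4a genes are at or near 0.

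Fatty acid hydroxylases and epoxygenases formed a group of 30 genes, of which 7 were described: 4 were higher in induction medium, 0 lower and 3 neither. Relative to the median gene, 3 were higher and 0 lower. Among all 11956 genes with at least 20 UMIs, 9.12% were called higher and 5.38% lower, and 793 and 926 genes relative to the median gene. The fatty acid group stood at 130 and 245 CPM. Cyp4v3, a fatty acid omega-hydroxylase, carried most of it, with 2383 UMIs (81.1 CPM) and 1512 UMIs (164 CPM), 2.03-fold higher. Cyp2j6, an epoxygenase of the endoplasmic reticulum, stood at 28.0 and 39.4 CPM, within 2-fold, and its neighbour Cyp2j5 at 2.76 and 10.8 CPM, 3.90-fold higher. In the Cyp4f subfamily, which inactivates leukotrienes, Cyp4f13 (8.13 and 19.9 CPM) and Cyp4f14 (0.544 and 2.93 CPM) were higher and Cyp4f16 (5.95 and 3.59 CPM) was neither. Cyp2u1 stood at 2.52 and 2.50 CPM.

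The Cyp4a genes, textbook targets of the fatty acid receptor PPARalpha, were silent. The 8 Cyp4a genes together gave 0 UMIs under expansion and 1 UMI under induction conditions, and Cyp4a14 was at 0 in both. With Cyp4b1, Cyp4x1 and Cyp4x1os added, 11 neighbouring genes held 3 and 2 UMIs. The receptor gene Ppara was counted at 1.43 and 5.76 CPM (log2 ratio 2.01, 1.40 to 2.63).

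All 4 described bile acid and sterol hydroxylases had intervals above a ratio of 1, and 3 of them were called higher. Over all genes, 4611 of 11956 had such an interval and 1090 were called higher. Cyp39a1, which hydroxylates 24-hydroxycholesterol, had 127 UMIs (4.32 CPM) in expansion and 475 UMIs (51.6 CPM) in induction medium, 11.9-fold higher (log2 ratio 3.58, 3.29 to 3.87). It lies on chromosome 17 from 43667425 to 43751431, and its end words recurred in no other member. Cyp27a1, the mitochondrial sterol 27-hydroxylase of the acidic bile acid pathway, stood at 1.26 and 8.80 CPM, 6.99-fold higher. Cyp7a1, the rate-limiting enzyme of the classic bile acid pathway, had 1 and 42 UMIs (log2 ratio 7.07, 4.51 to 12.40), which is 4.56 CPM in induction medium. Cyp7b1, the oxysterol 7-alpha-hydroxylase, stood at 1.40 and 2.61 CPM (log2 ratio 0.90, 0.11 to 1.66).

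The remaining 2 genes of that group, Cyp8b1, which makes cholic acid, and Cyp46a1, the cholesterol 24-hydroxylase of the brain, had 0 and 3 UMIs and 2 and 2 UMIs. Nr1h4, the gene of the bile acid receptor FXR, stood at 18.1 and 43.5 CPM. Nr0b2, the gene of its target SHP, which represses Cyp7a1, stood at 15.9 and 7.93 CPM (log2 ratio -1.0, -1.38 to -0.64), just within 2-fold and beyond it relative to the median gene.

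Of the P450 genes of vitamin A and vitamin D, Cyp26a1 was called higher. This retinoic acid hydroxylase, itself a target of retinoic acid, had 931 UMIs (31.7 CPM) and 762 UMIs (82.8 CPM), 2.61-fold higher (log2 ratio 1.39, 1.25 to 1.53). It lies on chromosome 19 from 37697798 to 37701536, and the direct repeat shown above lies upstream of this span. Its relative Cyp26b1 had 16 and 5 UMIs, and Cyp2r1, the vitamin D 25-hydroxylase, stood at 3.78 and 5.0 CPM (log2 ratio 0.40, -0.12 to 0.91). Cyp27b1 had 5 and 2 UMIs, and Cyp24a1 and Cyp26c1 were at 0. Among genes of steroid hormone synthesis, Cyp17a1, the 17-alpha-hydroxylase, was at 0 UMIs in expansion medium against 21 in induction medium. With the 0 set to the floor this is 22.4-fold higher, and the interval of the log2 ratio starts at 4.06. Of the same group, 1 further gene had under 20 UMIs and 4 were at 0. Cyp20a1, with no established substrate, stood at 19.5 and 16.4 CPM (log2 ratio -0.25, -0.52 to 0.01).

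Within a library the members were spread unevenly over cells. To compare cells at equal depth, each cell was thinned to 2000 UMIs, which left out 0 expansion and 14 induction cells. At least 1 P450 UMI was then found in 77.2% of expansion cells (74.7 to 79.5, exact binomial) and in 86.8% of induction cells (84.8 to 88.7), against 99.8% and 97.0% without thinning. Without Cyp1b1 the thinned shares were 50.3% (47.4 to 53.2) and 83.4% (81.2 to 85.5). The median thinned cell held UMIs of 1 member in expansion and of 2 members in induction medium.

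Cyp1b1 was found in 52.7% of thinned expansion cells and 15.8% of thinned induction cells (97.9% and 37.8% without thinning). Cyp2d9 was found in 1.18% and 24.3%, Cyp2d10 in 3.11% and 24.5%, Cyp39a1 in 0.252% and 10.9%, and Cyp4v3 in 17.9% and 29.7%. Without thinning these shares were 9.99% and 47.8%, 23.0% and 50.0%, 9.57% and 29.9%, and 77.1% and 60.8%. For Cyp4v3 the order of the media thus depended on the depth per cell. The same held for other members, among them Cyp2c29 (10.7% and 23.2% thinned, 40.7% and 37.9% without thinning). Cyp26a1 was another (5.79% and 14.4% thinned, 41.5% and 35.9% without thinning). No group of cells that should lack P450 transcripts was found, so the share that free RNA gives is not known for most members.

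Among the 8 members of highest level, 6 were found in over 38% of expansion cells, and of those Cyp2c29 was the most unevenly held. The 120 cells richest in it held 76.5% of its UMIs, with up to 121 UMIs in 1 cell, against 23.9% for Cyp1b1 and 30.7% for Cyp4v3. In induction medium the 125 richest cells for each gene held 64.5% of Cyp2c29, 53.3% of Cyp1b1, 49.6% of Cyp2d9 and 35.0% of Cyp4v3. Cyp4v3 was thus spread most evenly there among the 8 members of highest level.

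Cells were grouped in each library without using any gene whose symbol starts with Cyp, which gave 7 clusters of expansion cells and 9 of induction cells. A cluster of 6 induction cells is left aside. The clusters are named by number and leading genes, and their values are descriptions. In expansion medium the summed level of all members ran from 458 CPM in cluster 4 (leading genes S100a6, Serpine2, Sprr1a, Hmga2 and Marcks) to 1020 CPM in cluster 1 (Ly6d, Ccl5, Apoa1, Apoc3 and Serpina1e). In induction medium it ran from 276 CPM in cluster 3, led again by Sprr1a, Serpine2 and S100a6, to 2249 CPM in cluster 6 (Sult2a1, Thrsp, Sult2a2, Tff3 and Gnmt). Cluster 4 there, led by Slc22a30, Tat and Slco1a4, followed at 2213 CPM. The lowest cluster in each medium also held the lowest share of hepatocyte marker UMIs among clusters of this size, 1.81% in expansion and 2.30% in induction medium.

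Single members did not peak in the same cluster. In induction medium Cyp2d9, Cyp2d10 and Cyp2d26 were highest in cluster 6 (412, 487 and 246 CPM), Cyp26a1 in clusters 6 and 4 alike (125 CPM in each), Cyp2c29, Cyp4v3 and Cyp2c68 in cluster 4 (795, 250 and 91.5 CPM), and Cyp1b1 in cluster 8 (167 CPM), led by Abhd2, Sox4 and Itgav. Cluster 6, where Cyp2d9 peaked, had the lowest Cyp1b1 level (31.3 CPM). In expansion medium Cyp2d9, Cyp2d10, Cyp2d26 and Cyp26a1 peaked in cluster 2, led by the acute phase genes Orm2, Saa2, Orm1 and Saa1 (14.1, 31, 73.4 and 59.3 CPM), and Cyp2c29 and Cyp2c68 in cluster 1 (259 and 88.2 CPM). Cyp1b1 ran from 260 to 558 CPM over the 7 expansion clusters and from 31.3 to 167 CPM over the 8 induction clusters, so its lowest expansion cluster stood above its highest induction cluster. For the other 7 the lowest induction cluster lay below the highest expansion cluster. For Cyp2d9 and Cyp2d10 this rests on induction cluster 3 alone (8.57 and 9.64 CPM, 93 cells): their next lowest clusters, at 50.6 and 40.3 CPM, lay above every expansion cluster.

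**Figure D3:**
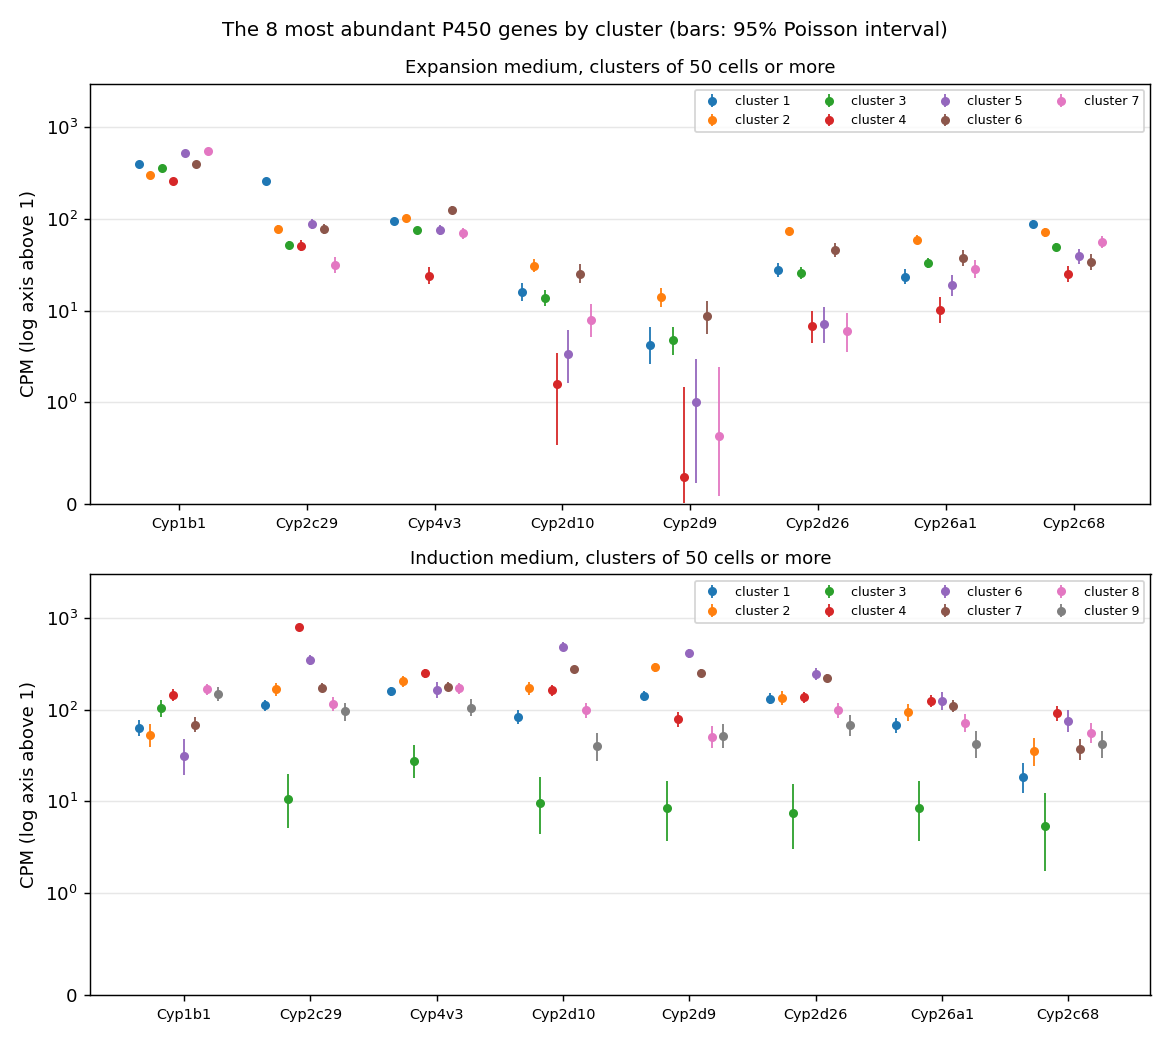
Level in CPM (log axis above 1 CPM, linear below) of the 8 most abundant P450 genes in the clusters of at least 50 cells of each library, 1 colour per cluster, with 95% Poisson intervals. Cyp1b1 is tight in expansion medium (260 to 558 CPM), Cyp2c29 in induction medium spans 10.7 to 795 CPM, and cluster 3 of induction medium (green) is lowest for every gene shown but Cyp1b1.

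Both libraries held cells with Xist and cells with Y-linked transcripts, and the levels of several members differed between these cells. Cells with Xist, the RNA of the inactive X chromosome, and no Y-linked UMI numbered 325 in expansion and 412 in induction medium. Cells with a UMI of Ddx3y, Eif2s3y, Kdm5d or Uty and no Xist numbered 505 and 503, and 361 and 330 cells met neither rule. Median depth was 23767 and 22837 UMIs in expansion, and 6942 and 7259 UMIs in induction medium. These cells come from different animals whose number is not given, so sex and animal cannot be told apart, and the differences were not tested.

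Cyp2c29 stood at 67.9 CPM in Xist cells and 103 CPM in Y cells of expansion medium, and at 464 and 115 CPM in induction medium. Although it led the induction library, in the Y cells there it stood below Cyp2d9 (183 CPM), Cyp2d10 (169 CPM), Cyp4v3 (154 CPM) and Cyp2d26 (149 CPM). The log2 ratio of Cyp2c29 between the media was 2.77 (2.63 to 2.92) in Xist cells and 0.17 (0.01 to 0.32) in Y cells. The 2-fold limit was thus passed in the Xist cells and not in the Y cells. Cluster 4 of induction medium, where Cyp2c29 peaked, held 97.8% Xist cells. Cyp2c55 (log2 ratio 3.18 and 0.76) and Cyp2c38 (3.65 and 1.26) had the same order of the 2 kinds of cells. Cyp2a5 had 34 UMIs in the Xist cells of induction medium (11.1 CPM) and 0 in the Y cells, where the floor is 0.744 CPM. Cyp2j6 had a log2 ratio of 1.81 (1.45 to 2.16) in Xist cells and -0.24 (-0.54 to 0.05) in Y cells, which the library value of 0.49 does not show.

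Cyp2d9 was lower in Xist than in Y cells of both media, at 2.31 and 6.31 CPM in expansion and 77.5 and 183 CPM in induction medium, while the intervals of its log2 ratio between the media overlapped, 5.07 (4.39 to 5.83) and 4.86 (4.52 to 5.22). Cyp39a1 stood 3.10 higher on the log2 scale in Xist cells and 4.27 in Y cells. Cyp1b1 was lower in induction medium in both (-1.52 and -2.24). By the call rule 19 of 25 members with at least 20 UMIs were higher and 1 lower in Xist cells, against 11% and 3.63% of all genes so counted there, and 11 of 23 were higher and 1 lower in Y cells, against 8.06% and 5.64%. Cyp2c29, Cyp2c55 and Cyp4v3 were among the calls not met in Y cells.

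**Figure D4:**
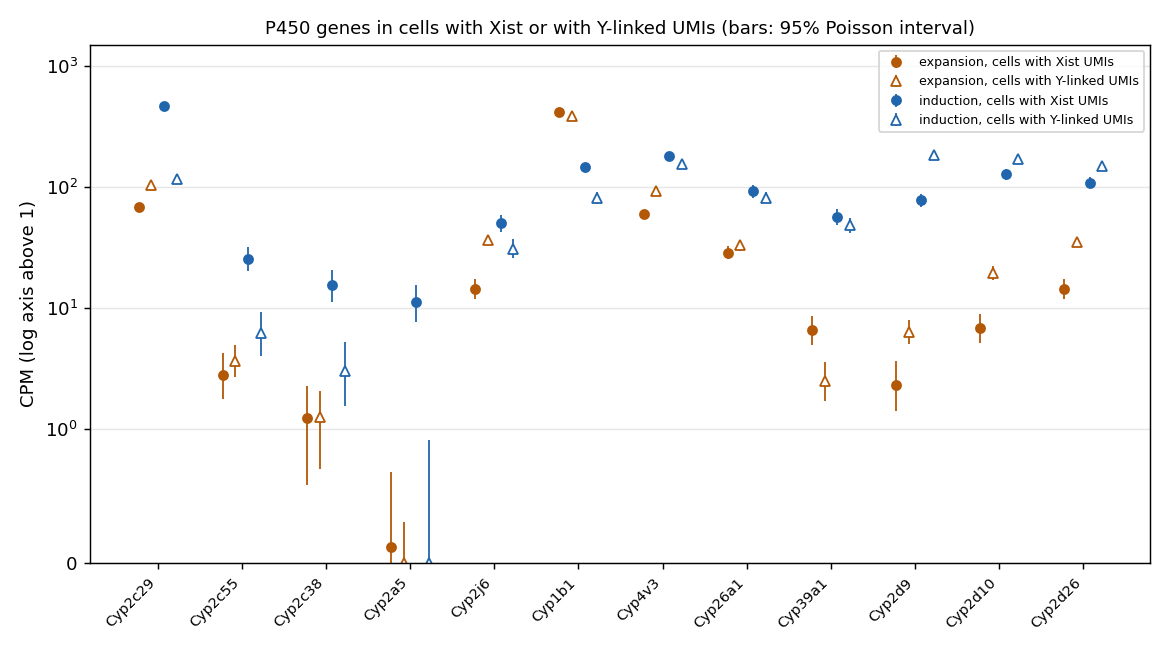
Level in CPM (log axis above 1 CPM, linear below) of 12 P450 genes in cells with Xist UMIs (filled circles) and cells with Y-linked UMIs (open triangles) of expansion (brown) and induction (blue) medium, with 95% Poisson intervals. For Cyp2c29 the blue circle (464 CPM) stands far above the other 3 points (67.9 to 115 CPM), while for Cyp2d9 both blue points stand far above both brown points.

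P450 enzymes need electrons and heme, and genes for both were listed as a setting for the members. Among all 11956 genes with at least 20 UMIs, 9.12% were called higher and 5.38% lower. Of 10 counted genes of electron transfer, 2 were higher in induction medium and 0 lower (median log2 ratio 0.37 against 0.17 over all genes). They were Por, the reductase that feeds every P450 of the endoplasmic reticulum (1561 and 2105 UMIs, 53.1 and 229 CPM, log2 ratio 2.11, 2.01 to 2.20), and its helper Cyb5a (218 and 553 CPM). Cyb5r3, which reduces cytochrome b5, stood at 217 and 414 CPM, and Pgrmc1, a heme-binding partner of P450 enzymes, at 466 and 543 CPM, both within 2-fold. Of the mitochondrial partners, Fdx1 (52.8 and 90.4 CPM) and Fdxr (4.83 and 6.30 CPM) were both within 2-fold. Of 8 genes of heme synthesis, 2 were higher (median 0.32): Alas1, the rate-limiting first enzyme, at 15.7 and 59.7 CPM (log2 ratio 1.93, 1.75 to 2.11), and Cpox, just past 2-fold at 12.4 and 25.0 CPM and within it relative to the median gene. Alad, the next enzyme after Alas1, stood at 86.1 and 55.1 CPM, and Urod at 17.0 and 24.3 CPM. None of 4 genes of heme breakdown was called, with Blvrb at 58.1 and 68.6 CPM, Hmox2 at 32.0 and 49.0 CPM, Blvra at 15.5 and 17.1 CPM and the inducible Hmox1 at 4.76 and 4.67 CPM (list median 0.19).

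Among all 11956 genes with at least 20 UMIs, 9.12% were called higher and 5.38% lower. Relative to the median gene these were 793 and 926 genes. Of 21 counted regulators of P450 genes, 7 were higher and 0 lower (median 0.56), and 6 and 1 relative to the median gene. The 7 were Nr1i2, the gene of the drug receptor PXR (2.45 and 12.8 CPM, log2 ratio 2.39, 1.95 to 2.83), its dimer partner Rxra (20.4 and 100.2 CPM), Ppara, Nr1h4, Hnf4a (93.4 and 250 CPM), and the circadian factors Tef and Hlf. The gene of CAR, Nr1i3, had 1 and 7 UMIs. The glucocorticoid receptor gene Nr3c1 stood at 36.8 and 48.3 CPM. Stat5b, which carries the growth hormone signal to sex-dependent P450 genes, stood at 9.90 and 14.3 CPM.

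**Figure D5:**
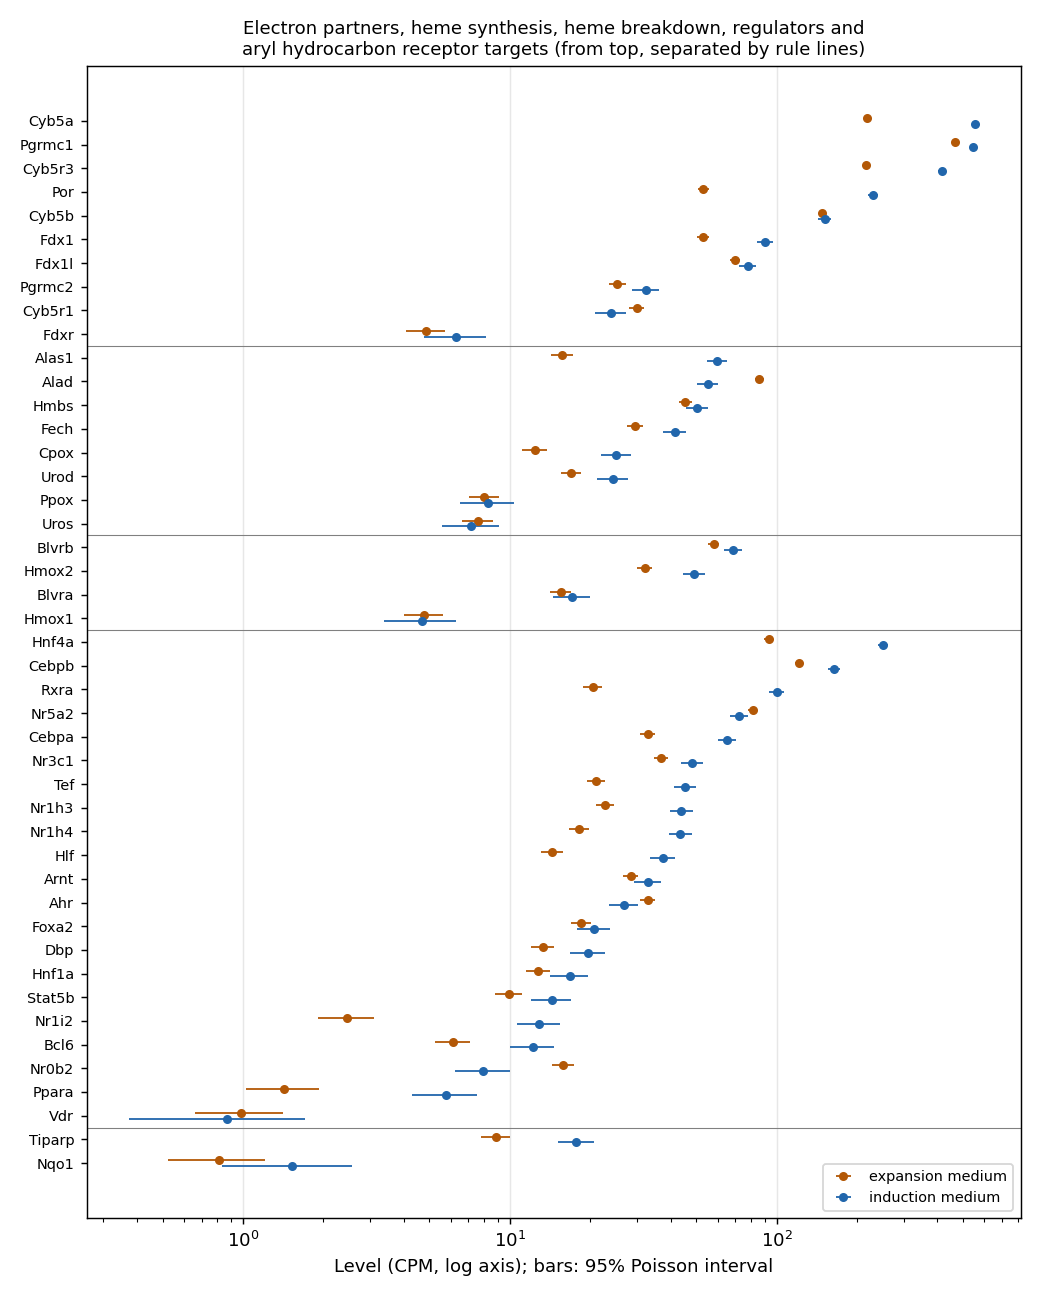
Level in CPM (log axis) of the counted genes of electron transfer, heme synthesis, heme breakdown, P450 regulation and aryl hydrocarbon receptor response, in expansion (brown) and induction (blue) medium, with 95% Poisson intervals. Por, Alas1, Rxra and Nr1i2 show the widest gaps of their lists (log2 ratios 1.93 to 2.39), and most other genes lie within 2-fold.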

How the data were processed

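Droplet libraries (10x Genomics Chromium) of mouse hepatocytes gave the UMI counts per gene and cell barcode that the authors deposited, made with Cell Ranger 2.1.1 and build mm10, both named in the submitters' processing notes. How cells were called, and the annotation release, is not given in the sources used here. Groups came from the medium named in the labels, with 1 library each. The gene and barcode files hold names only.

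Counts were summed over filtered cells and divided by the library total (CPM). Levels have exact Poisson intervals, ratios exact conditional binomial intervals and shares exact Clopper-Pearson intervals, at 95%. No test was made and no p-value computed. For the fold values of genes at 0 in 1 library, the 0 was set to 3 UMIs, and for medians every count under 3 was. Thinning drew UMIs without replacement with a fixed seed. Clusters came from scanpy 1.11.5 and igraph 0.11.9 (2000 variable genes, 20 components, 15 neighbours, resolution 0.6). Doublets were not removed; Scrublet marked 4 expansion and 2 induction cells. Genes were named by a fixed rule: all members with at least 20 UMIs, well-known liver P450 genes below that, up to 5 leading genes per cluster, and of each list the most abundant gene and the 3 largest ratios among genes with at least 20 UMIs. Sox9, the collagens and further marker genes were chosen for naming after seeing their values, as were Ugt1a6a, Aldh3a1, Arnt, Nr3c1, Stat5b and other list genes beyond the 4 of each list that the rule gives values for. Further members under 20 UMIs, such as Cyp46a1, Cyp27b1, Cyp24a1, Cyp26c1, Cyp2c66, Cyp4b1 and Cyp4x1, were also named outside the rule. The members and lists were chosen with earlier results of these data known.

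Coordinates come from GENCODE M21 (GRCm38, which mm10 denotes), where all 92 members matched, and upstream sequences from RefSeq. The motifs were chosen after the results were known. The ratio code was tested on simulated counts. Scripts used pandas 2.3.3, scipy 1.17.1, numpy 2.4.6 and Python 3.11.15.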

Additional observations from a re-analysis of the deposited data

How the results depend on the processing

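The count of members higher in induction medium stayed within 1.5 times of 22, and that of lower members at 2 or 3, under other cell filters (none, or 1000 genes with 10% mitochondrial UMIs), other scalings (to the median gene, each cell weighted alike, ribosomal protein and mitochondrial genes left out), without the cells Scrublet marked, with a minimum of 10 UMIs and at 1.5-fold. Higher members numbered 13 with cells thinned to 2000 UMIs, 11 in Y cells, 14 with 20 UMIs required in each library and 10 with subfamilies summed, each with 1 lower, where fewer genes were counted (18, 23, 22 and 19). Lower members numbered 1 in Xist cells, with a minimum of 50 UMIs, at 4-fold and without members that share end words. The share over all genes was computed only for the main rule, the median gene, Xist cells, Y cells and 20 UMIs in each library. Counts under the other settings have no such share beside them and are descriptions. The log2 ratio of the summed family was 0.53 with ribosomal protein and mitochondrial genes left out, 0.54 relative to the median gene, 0.80 in thinned cells, 1.10 in Xist cells, 0.54 in Y cells and 1.59 without Cyp1b1. No called member changed direction under these settings. The limits of 20 UMIs in each library, shared end words and leaving out Cyp1b1 were chosen after seeing the data. No paired analysis was possible because each medium has 1 library; leaving out a library was not possible either. Depth limits genes under about 20 UMIs, above all in the induction library.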
